A study of Mus musculus with 11 samples.

Results

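The 10 genes described here form the core of TGF-beta signaling: the ligands *Tgfb1*, *Tgfb2* and *Tgfb3*, the receptors *Tgfbr1* and *Tgfbr2*, the signal transducers *Smad2*, *Smad3* and *Smad4*, and the inhibitors *Smad7* and *Skil*. They were chosen by name as pathway genes, and they are 10 of the 35056 genes into which the sequencing reads were summed. The study asked how radiotherapy and blockade of CD47, a surface protein that protects cells from phagocytosis, act together against small cell lung cancer (SCLC), and its bulk RNA sequencing asked how SCLC cells in culture respond to irradiation alone. The libraries came from KP1 cells, a mouse SCLC cell line with mutant *Rb* and p53. There were 2 libraries of untreated control cells, numbered 2 and 3, and 3 libraries of cells irradiated with 5 Gy, numbered 1, 2 and 3, whose pellets were taken after 24 h. All libraries are of this single cell line, with the same *Rb* and p53 genotype in both groups, in RPMI-1640 medium with serum, and serum itself contains TGF-beta. Nothing states that the libraries of a group came from separate cultures, so p-values measure the spread between these libraries, which may be technical.

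TGF-beta ligands are secreted in a latent form and, once released, bind the type II receptor TGFBR2, which recruits and phosphorylates the type I receptor TGFBR1. TGFBR1 then phosphorylates SMAD2 and SMAD3, which join SMAD4 and enter the nucleus to regulate genes. SMAD7 blocks the type I receptor, and SnoN, the product of *Skil*, represses genes at SMAD-bound sites. In epithelial cells this pathway is known for growth arrest and for loss of epithelial character, and radiation is known to release latent TGF-beta in tissues. These data hold RNA levels only and do not show ligand activation or SMAD phosphorylation.

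The libraries held 21185956 to 31036317 estimated reads. Reads in control libraries came from longer transcripts, with a read-weighted mean transcript length of 4729 to 5463 bases against 3625 to 3998 bases in irradiated libraries. The members have long transcripts (median of 4045 bases against 2502 bases over all 14106 genes tested), so results are also given with an offset that removes each library's trend with transcript length. Neuroendocrine markers, which SCLC cells typically express, were present, with the 10 markers together at 2671 to 2864 TPM (Salmon's transcript abundance, scaled for transcript length and library depth). Of 10 leukocyte and macrophage markers, 5 stood at 3 reads or fewer in every library, among them *Adgre1*, *Csf1r* and *C1qa*, and the list summed to 4.76 and 7.12 TPM in control and 1.66 to 2.14 TPM in irradiated libraries. Fibroblast markers summed to 46.4 to 82.9 TPM, led by *Pdgfra*, with *Col3a1*, *Dcn* and *Postn* at 3 reads or fewer. In bulk RNA, fewer cells with a transcript and less of it per cell cannot be told apart.

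Several members are made as alternative coding forms, and the segments that set these forms apart are printed first because the shares of forms given below turn on them. All are given 5′ to 3′ on the coding strand from GENCODE M21 transcripts on GRCm38 (mm10), with the segment in capitals and 15 bases of neighbouring exon on each side in lower case. The 84-base exon of *Tgfb2* lies at chr1:186690721-186690804 on the minus strand and adds 28 residues to the latency-associated part of the precursor. The 75-base exon of *Tgfbr2* lies at chr9:116158271-116158345 on the minus strand and adds 25 residues to the extracellular part of the receptor. The 12-base segment of *Tgfbr1* lies at chr4:47393247-47393258 on the plus strand and adds 4 residues. The 138-base segment of *Skil* lies at chr3:31113503-31113640 on the plus strand and adds the 46 residues by which SnoN is longer than its SnoN2 form.
*Tgfb2* exon: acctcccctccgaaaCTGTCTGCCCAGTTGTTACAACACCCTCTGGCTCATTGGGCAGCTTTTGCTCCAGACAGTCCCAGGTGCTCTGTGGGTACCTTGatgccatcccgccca
*Tgfbr2* exon: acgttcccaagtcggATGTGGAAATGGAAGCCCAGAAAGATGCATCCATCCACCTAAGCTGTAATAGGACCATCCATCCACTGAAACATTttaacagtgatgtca
*Tgfbr1* segment: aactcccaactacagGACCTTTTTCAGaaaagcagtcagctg
*Skil* segment: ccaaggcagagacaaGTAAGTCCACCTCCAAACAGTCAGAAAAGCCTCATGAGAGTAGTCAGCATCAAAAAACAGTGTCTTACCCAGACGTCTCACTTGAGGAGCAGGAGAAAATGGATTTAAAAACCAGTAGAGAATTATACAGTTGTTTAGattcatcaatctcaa

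KP1 cells had RNA of all 10 members, at levels that spanned from under 1 to over 100 TPM. In control cells the common mediator *Smad4* was highest at 115 ± 12.5 TPM (mean ± SD, n = 2, as for all control values), followed by *Tgfb2* at 102 ± 8.59 TPM and *Smad2* at 78.1 ± 5.44 TPM. *Tgfbr1* stood at 44.9 ± 4.17 TPM, *Skil* at 18.2 ± 3.55 TPM, *Tgfb3* at 14.6 ± 1.08 TPM and *Smad7* at 8.20 ± 1.85 TPM. The lowest were *Tgfb1* at 2.69 ± 0.692 TPM, *Smad3* at 1.46 ± 0.319 TPM and the type II receptor *Tgfbr2* at 0.431 ± 0.150 TPM. The ligand, receptor and receptor-activated SMAD classes each held a high and a low member. Among tested genes, the control level of *Smad4* stood at percentile 88.8 and that of *Tgfbr2* at percentile 5.21.

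Neighbours in this order mostly kept apart in the control libraries. *Smad4* and *Tgfb2* did not, with a ratio of mean TPM of 1.13 and overlapping ranges. Over all 5 libraries the ranges of *Tgfb2* and *Smad2*, of *Skil* and *Tgfb3*, of *Tgfb3* and *Smad7*, and of *Smad7* and *Tgfb1* overlapped as well. The steps that stayed apart in all 5 libraries were *Smad2* over *Tgfbr1* (ratio of control means 1.74), *Tgfbr1* over *Skil* (2.47), *Tgfb1* over *Smad3* (1.84) and *Smad3* over *Tgfbr2* (3.38). Noncoding transcripts of a gene are included in these levels, and they held up to 52.8% of the TPM of *Tgfb1*, 31.5% of that of *Tgfb2* and 16.3% of that of *Smad4* in a library. On protein-coding transcripts alone the order of control means was unchanged, but *Smad4* (92.3 and 124 TPM) no longer overlapped *Tgfb2* (83.5 and 89.6 TPM), and the control ranges of *Tgfb1* (1.53 and 2.93 TPM) and *Smad3* (1.23 and 1.68 TPM) did.

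**Figure D1:**
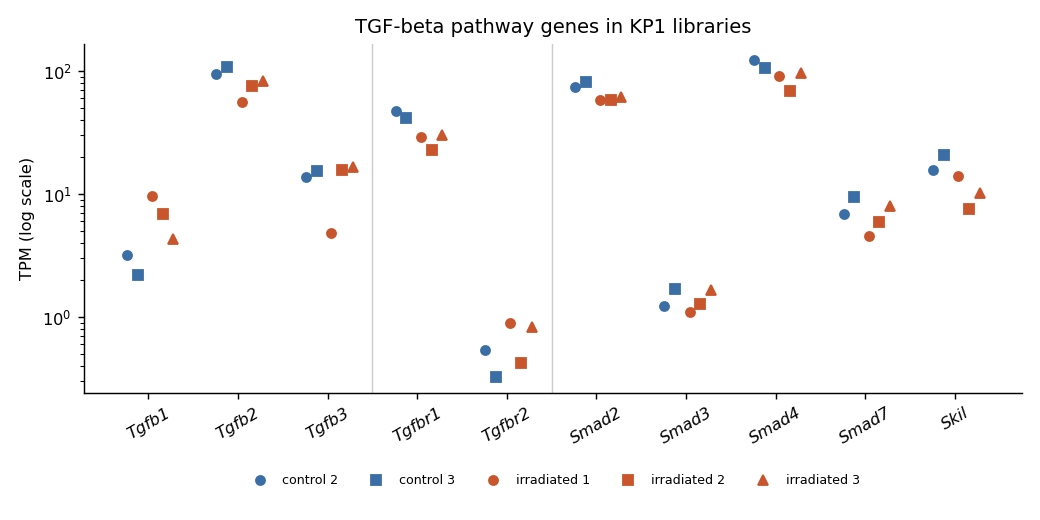
Level of the 10 genes in each library, as TPM summed over all transcripts of a gene on a log axis, with blue for control and orange for irradiated libraries and the marker shape for the replicate number. *Tgfb1* sits higher in the 3 irradiated libraries, while *Tgfb2*, *Tgfbr1*, *Smad2*, *Smad4* and *Skil* sit lower.

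No member passed edgeR's quasi-likelihood test at an adjusted p under 0.05 (Benjamini-Hochberg over all genes tested), where 25.6% of all genes did. *Tgfb1* alone had an unadjusted p under 0.05, a level that 41.0% of all genes reached. At the study's stricter threshold, with a log2 fold change beyond 1.5 in addition, 3.53% of genes and no member passed. DESeq2 called 1 member, *Tgfb1*, beside 31.2% of all genes, and limma on log2(TPM + 1) called 1, *Tgfbr1*, beside 23.9%. In edgeR *Tgfb1* was also called without a filter on low counts (21.9% of all genes) and with an offset for Salmon's effective length (20.2%). Of the 10 fitted log2 fold changes (irradiated against control), 5 were above 0 and 5 below, with a median of -0.06 beside 0.02 over all genes tested and -0.11 over the 8027 genes within the members' range of transcript length. With the length offset the median was 0.25, beside 0.04 over all genes, and 7 were above 0.

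In CPM (counts scaled for library depth with TMM factors, not for length) the groups did not overlap for 5 of 10 members, 2 of them higher and 3 lower in irradiated cells, where 59.4% of all genes did not overlap. In TPM they did not overlap for 6 members, 1 higher and 5 lower, beside 58.1% of all genes, of which 15.4% were higher and 42.7% lower. For a group of 2 and a group of 3, the smallest p of a two-sided exact permutation test is 0.1. Irradiated replicate 1 had the lowest CPM of all 5 libraries for 4 members and the highest for 2.

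**Figure D2:**
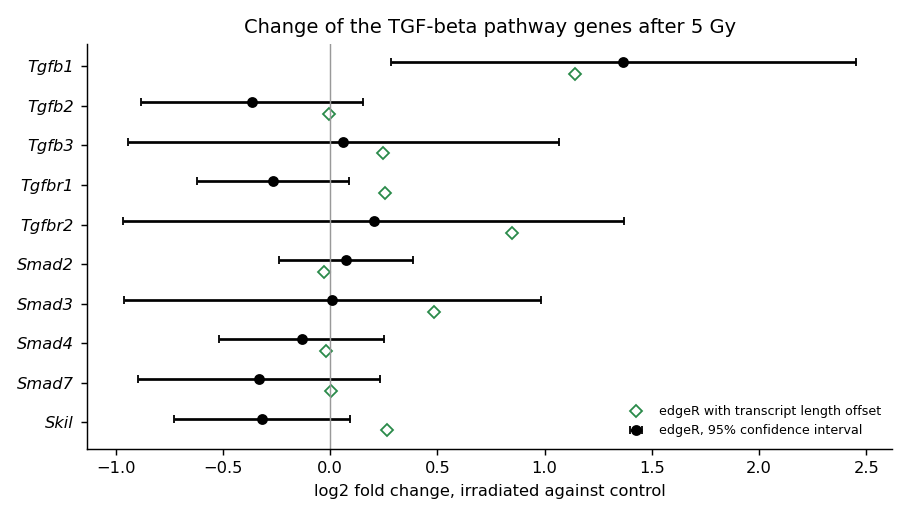
Fitted log2 fold change of each gene, irradiated against control, with edgeR's 95% confidence interval (black), and the estimate with the transcript length offset (open green diamonds). The interval of *Tgfb1*, from 0.28 to 2.45, is the only one that lies wholly above 0, and with the offset *Tgfbr1* and *Skil* move from below 0 to 0.26.

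Of the ligands, *Tgfb1* had the largest fitted change of any member. The gene lies at chr7:25687002-25705077 on the plus strand and encodes the ligand best known for immune suppression and fibrosis. Its reads were 96 and 63 in control replicates 2 and 3 and 306, 104 and 144 in irradiated replicates 1, 2 and 3, which is 3.36 and 2.36 CPM against 12.2, 4.75 and 5.24 CPM. All 3 irradiated libraries lay above both controls, and irradiated replicate 1 lay well above the other 2. The log2 fold change was 1.37 ± 0.47 (SE), a fold of 2.58 with a 95% confidence interval of 0.28 to 2.45 on the log2 scale, and edgeR's adjusted p was 0.0649. DESeq2 gave the same change of 1.37 with an adjusted p of 0.0179, and edgeR with the length offset gave 1.14 with an adjusted p of 0.154. Without irradiated replicate 1, edgeR gave 0.80 with an adjusted p of 0.150. Over the 20 alternatives the adjusted p ran from 0.00524 to 0.441.

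On the TPM scale *Tgfb1* stood at 3.17 and 2.20 in control and at 9.66, 6.93 and 4.35 in irradiated libraries. In irradiated replicate 2, 52.8% of that level came from noncoding transcripts, most of it from 2 reads on a noncoding transcript of 241 bases. The coding transcript alone stood at 2.93 and 1.53 TPM in control and at 9.17, 3.27 and 4.04 TPM in irradiated libraries, still higher in all 3. With only coding transcripts summed, edgeR's log2 fold change was 1.51 with an adjusted p of 0.0664. A transcript with a retained intron held 9.21% and 34.8% of the gene's reads in control and 6.12%, 7.95% and 8.42% in irradiated libraries, on 8.30 to 21.8 reads a library.

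*Tgfb2* was the main ligand of these cells in every library. It lies at chr1:186622792-186705989 on the minus strand and encodes a ligand known for its roles in development, whose binding to the receptors depends on a co-receptor more than that of the other ligands. It had 6282 and 5947 reads in control and 3037, 4006 and 5837 in irradiated libraries, or 220 and 223 CPM against 121, 183 and 213 CPM. The irradiated libraries all lay below the controls, but irradiated replicate 3 came within 10 CPM of them and irradiated replicate 1 was far lower. The log2 fold change of -0.36 ± 0.23 (95% confidence interval -0.88 to 0.15) did not pass (edgeR, adjusted p = 0.257), and with the length offset it was -0.01. In TPM the levels were 95.6 and 108 against 56.6, 75.2 and 83.2.

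The exon printed above distinguishes the long from the short form of *Tgfb2*. Of the reads of both forms, the long form took 5.22% and 8.58% in control and 8.88%, 6.61% and 8.22% in irradiated libraries. The short form thus led everywhere, and the groups overlapped (difference of 1.01 percentage points, exact permutation p = 0.6).

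*Tgfb3* did not separate the groups. It lies at chr12:86056745-86079041 on the minus strand and encodes a ligand known for palate fusion and wound repair. Its reads were 671 and 675 in control and 249, 747 and 890 in irradiated libraries, or 23.5 and 25.3 CPM against 9.92, 34.1 and 32.4 CPM. Irradiated replicate 1 lay below both controls and the other 2 above, so the log2 fold change was 0.06 ± 0.44 with a wide interval of -0.95 to 1.07 (edgeR, adjusted p = 0.931). The 3′ end of *Tgfb3* overlaps that of *Ttll5* on the opposite strand, whose reads were 2835 and 1867 in control and 691 to 1552 in irradiated libraries. Whether the counting used strand is not stated, so reads in the overlap cannot be assigned with certainty.

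Among coding transcripts, *Tgfb2* held 83.3% and 84.2% of the summed ligand TPM in control and 73.5%, 74.4% and 77.7% in irradiated libraries. All irradiated libraries lay below the controls (difference of -8.53 percentage points, exact permutation p = 0.1, the smallest possible). *Tgfb1* lay above its control shares of 2.92% and 1.43% in each irradiated library, at 17.4% in replicate 1 and at 4.38% and 4.35% in replicates 2 and 3 (exact permutation p = 0.4 for the difference of means). *Tgfb3* held 13.8% and 14.4% in control and 9.17%, 21.2% and 17.9% in irradiated libraries, with no order between the groups (exact permutation p = 0.7). The summed level of the 3 ligands was 100.2 and 106 TPM in control and 52.8, 74.6 and 92.8 TPM in irradiated libraries (exact permutation p = 0.2). Over all transcripts the *Tgfb2* share was 84.9% and 86.0% against 79.6%, 76.8% and 79.9%. In TPM, 42.7% of all genes tested lay lower in every irradiated library than in both controls. The ligands differ in mean transcript length, at 4110 bases for *Tgfb2*, 3383 for *Tgfb3* and 1953 for *Tgfb1*. The part of transcript length in these shares was not tested.

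**Figure D3:**
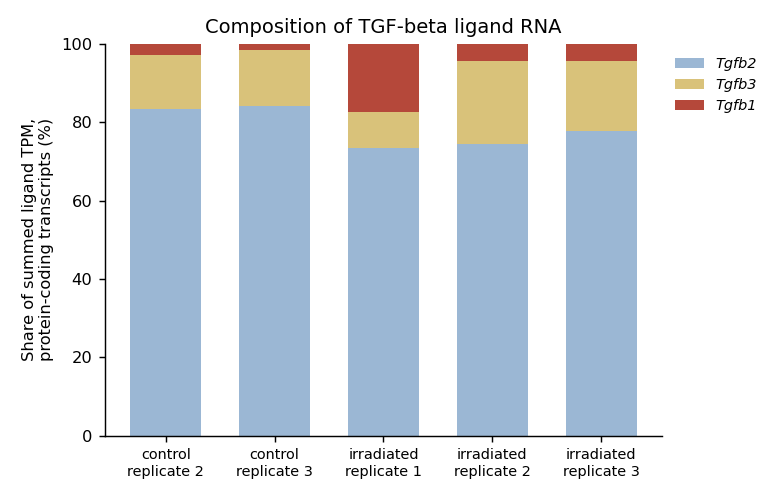
Share of the summed TPM of the 3 ligands held by each, over protein-coding transcripts, in each of the 5 libraries, with bars stacked to 100% and no replicate averaging. *Tgfb2* makes up 73.5% to 84.2% everywhere, and the *Tgfb1* share is largest in irradiated replicate 1 at 17.4%.

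The type I receptor was abundant and the type II receptor scarce in both groups. *Tgfbr1*, the type I receptor and the kinase that phosphorylates SMAD2 and SMAD3, lies at chr4:47353222-47414931 on the plus strand. It had 3138 and 2832 reads in control and 2419, 1688 and 2635 in irradiated libraries, or 110 and 106 CPM against 96.3, 77.1 and 96.0 CPM. All 3 irradiated libraries lay below the controls, with replicate 2 lowest. The log2 fold change was -0.27 ± 0.16 with an interval of -0.62 to 0.09 (edgeR, adjusted p = 0.229), and the length offset turned it to 0.26. In TPM *Tgfbr1* stood at 47.9 and 42.0 against 29.3, 22.8 and 30.1, and limma on log2(TPM + 1) gave -0.70 with an adjusted p of 0.0420, on a scale where the median of all genes was -0.24.

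*Tgfbr2*, the type II receptor that binds the ligand first, lies at chr9:116084293-116175360 on the minus strand. It had 66 and 36 reads in control and 66, 29 and 65 in irradiated libraries, or 2.31 and 1.35 CPM against 2.63, 1.32 and 2.37 CPM. The groups overlapped, and with a log2 fold change of 0.20 ± 0.51 and an interval of -0.96 to 1.37 a change was not detectable at this depth (edgeR, adjusted p = 0.798). With the length offset the log2 fold change was 0.85 (adjusted p = 0.275). *Tgfbr2* was the lowest member in every library, at 0.537 and 0.325 TPM in control and 0.890, 0.423 and 0.836 TPM in irradiated libraries. The ratio of *Tgfbr1* to *Tgfbr2* TPM was 89.2 and 129 in control and 32.9, 53.9 and 35.9 in irradiated libraries, lower in all 3 (exact permutation p = 0.1). On reads the ratio was 47.7 and 78.4 against 36.5, 58.0 and 40.5, and the groups overlapped. The TPM ratio also depends on which form of *Tgfbr2* the reads were assigned to, given below. The type II receptors of the related activin and BMP ligands were much higher in control cells, with *Acvr2a* at 20.9 ± 1.68 TPM, *Acvr2b* at 36.9 ± 14.1 TPM and *Bmpr2* at 32.3 ± 6.15 TPM.

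Salmon assigned the low *Tgfbr2* reads to different forms in the groups. In both controls all reads, 65.8 and 36.1, were assigned to the form with the 75-base exon and none to the form without it. Reads from sequence that the forms share cannot tell them apart, so this assignment sets no upper limit on the share of the form without the exon. In irradiated libraries the form with the exon took 32.3 of 66.3, 14.4 of 29.1 and 31.9 of 65.0 reads, or 48.7%, 49.4% and 49.1%. The difference of -50.9 percentage points had an exact permutation p of 0.1, the smallest possible, and as a share of TPM it was -71.8 percentage points. The annotated transcripts also differ in length outside the exon (8092 against 3476 bases), the counts are Salmon's estimates, and no library had more than 66.3 reads to divide. The part of the libraries' difference in transcript length in this result was not tested.

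The forms of *Tgfbr1* overlapped between the groups. Transcripts with the 12-base segment took 89.9% and 91.8% of reads in control and 91.8%, 91.8% and 93.2% in irradiated libraries (exact permutation p = 0.2). A coding transcript of 1713 bases, singled out after its values were seen, had 219 and 61.2 reads in control and 0, 13.3 and 0 in irradiated libraries. Another of 1829 bases went the other way, with 0 in both controls and 12.3, 16.5 and 5.23 in irradiated libraries. Reads in shared sequence fit several transcripts, so Salmon's estimates of 0 set no upper limit on the share of either. How often transcripts at large separate the groups is not given here.

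**Figure D4:**
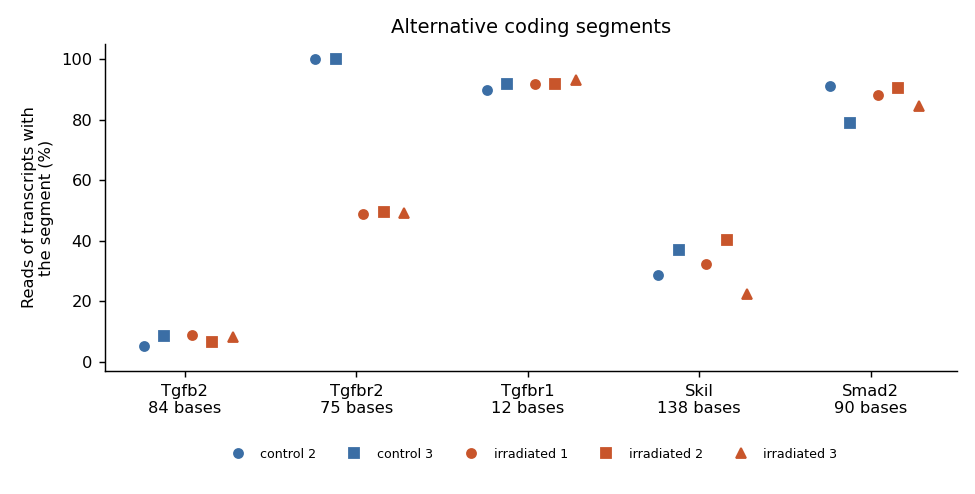
Share of the reads of the coding transcripts compared for a gene that Salmon assigned to transcripts with the named segment, for each library. Blue marks control and orange irradiated libraries. The *Tgfbr2* exon is at 100% in both controls and between 48.7% and 49.4% in irradiated libraries, on 29.1 to 66.3 reads each, while the groups overlap for the exons of *Tgfb2* and *Smad2* and the segments of *Tgfbr1* and *Skil*.

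Of the SMADs that the receptor activates, *Smad2* stood in each library at 37.2 to 60.3 times the TPM of *Smad3*. *Smad2* lies at chr18:76241580-76310963 on the plus strand, and its product joins SMAD4 after phosphorylation. It had 2167 and 2187 reads in control and 2063, 1856 and 2258 in irradiated libraries. In CPM it was 75.9 and 82.1 against 82.2, 84.8 and 82.2, so the irradiated libraries all lay above the controls, replicate 1 only just. In TPM it was 74.3 and 82.0 against 58.3, 58.0 and 61.4, so the irradiated libraries all lay below. The leading *Smad2* transcript is 2857 bases in the authors' quantification and 8089 bases in GENCODE M21, the only 1 of the members' 48 transcripts to differ. The reads, CPM and TPM of *Smad2*, its fold change, its ratio to *Smad3*, its exon share and its length offset all rest on the shorter version. The edgeR log2 fold change was 0.07 ± 0.14, with the interval from -0.24 to 0.39 among the narrowest of the members (adjusted p = 0.726), and the sign thus depended on the scale. Transcripts with the 90-base exon that lowers DNA binding took 91.2% and 79.0% of its reads in control and 88.1%, 90.4% and 84.5% in irradiated libraries, with overlapping groups (exact permutation p = 0.7).

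*Smad3*, at chr9:63646767-63757994 on the minus strand, encodes the receptor-activated SMAD that binds DNA directly. It had 93 and 115 reads in control and 54, 94 and 137 in irradiated libraries, or 3.26 and 4.32 CPM against 2.15, 4.29 and 4.99 CPM. Irradiated libraries lay on both sides of the controls, and the log2 fold change was 0.01 ± 0.43 with an interval of -0.96 to 0.98 (edgeR, adjusted p = 0.988), and 0.49 with the length offset (adjusted p = 0.464). The ratio of *Smad2* to *Smad3* TPM was 60.3 and 48.7 in control and 52.6, 45.3 and 37.2 in irradiated libraries (exact permutation p = 0.4).

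*Smad4*, at chr18:73639009-73703780 on the minus strand, encodes the partner shared by the TGF-beta and BMP branches. It had 5737 and 3960 reads in control and 4197, 3286 and 4421 in irradiated libraries, or 200.9 and 149 CPM against 167, 150 and 161 CPM. The irradiated libraries lay between the controls, and the log2 fold change was -0.13 ± 0.17 with an interval of -0.52 to 0.25 (edgeR, adjusted p = 0.588). In TPM they lay below both controls, at 92.1, 69.6 and 97.1 against 124 and 106. A *Smad4* transcript of 2233 bases with the same coding sequence and another first exon, singled out after its values were seen, had 474 and 269 reads in control and 0, 7.01 and 0 in irradiated libraries. That is 8.26% and 6.79% of the gene's reads in control. Reads in the shared sequence fit both transcripts, so Salmon's estimate of 0 in irradiated replicates 1 and 3 sets no upper limit on this transcript's share.

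Both inhibitors had fitted changes below 0 that did not pass the test. *Smad7*, at chr18:75367529-75395935 on the plus strand, is itself induced by TGF-beta in many cells and closes a negative feedback loop. It had 432 and 540 reads in control and 271, 365 and 404 in irradiated libraries, or 15.1 and 20.3 CPM against 10.8, 16.7 and 14.7 CPM. The groups overlapped at irradiated replicate 2, and the log2 fold change of -0.33 ± 0.25 had an interval of -0.90 to 0.23 (edgeR, adjusted p = 0.343). With the length offset it was 0.0029. Its TPM relative to *Smad2* was 9.28% and 11.6% in control and 7.87%, 10.3% and 13.0% in irradiated libraries, with full overlap.

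*Skil*, at chr3:31095058-31122577 on the plus strand, encodes SnoN, which holds SMAD complexes in a repressed state and is degraded when TGF-beta signals. It had 1403 and 1189 reads in control and 1111, 690 and 1014 in irradiated libraries, or 49.1 and 44.6 CPM against 44.2, 31.5 and 36.9 CPM. All irradiated libraries lay below the controls, replicate 1 only just. The log2 fold change was -0.32 ± 0.18 with an interval of -0.73 to 0.09 (edgeR, adjusted p = 0.215), and with the length offset it was 0.26. Transcripts with the SnoN segment printed above took 28.6% and 36.8% of the reads of the forms compared in control and 32.4%, 40.3% and 22.4% in irradiated libraries (exact permutation p = 1), so the SnoN2 form led in every library.

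The genes whose pattern over the 5 libraries was nearest to that of *Tgfb1*, the member with the smallest p, were *Gem*, *Cyb561* and *Gria3*. Likeness was the Euclidean distance between log2 CPM values centred on each gene's mean, which was 0.229, 0.291 and 0.300 for these genes beside a median of 1.86 over all genes tested. *Cyb561*, which encodes a cytochrome of secretory vesicles, had 14.9 and 11.7 CPM in control and 51.0, 25.3 and 27.1 CPM in irradiated libraries and passed the test with a log2 fold change of 1.38 (edgeR, adjusted p = 0.0208). *Gem*, a small GTPase, had 11 to 49 reads a library and did not pass. *Gria3*, a glutamate receptor subunit, had 5 to 29 reads and did not pass either.

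Around the members, 112 other pathway genes with 113 gene identifiers, 2 of them for *Hgs*, were grouped into 9 lists, and 93 identifiers were tested. Of these, 8 were higher and 18 lower in irradiated cells at edgeR's adjusted p under 0.05, beside 12.7% and 13.0% of all genes, and their median log2 fold change was -0.20. With the length offset 6 were higher and 5 lower, with a median of 0.07, where 7.27% of all genes passed in either direction. In the lists limma on log2(TPM + 1) called 1 higher and 22 lower, beside 693 and 2678 of all 14106 genes tested. Leaving out 1 library moved edgeR's counts, furthest without control replicate 2, a fit that leaves 1 control. Without irradiated replicate 1 they were 5 higher and 9 lower (12.5% of all genes called). They were 2 and 8 without irradiated replicate 2 (10.9%), and 6 and 14 without irradiated replicate 3 (21.8%).

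Among genes for storage and activation, other ligands and extracellular antagonists, few passed in edgeR, where 25.6% of all genes did. Some of those tested had few reads, such as *Ltbp2* (3 to 14 a library) and *Thbs1* (5 to 11), which limits their precision. Of 13 tested genes for storage and activation of latent TGF-beta, only *Ltbp4*, a latent TGF-beta binding protein, fell (log2 fold change -0.57, adjusted p = 0.0360). With the length offset *Ltbp4* was -0.11 and the list's call was *Emilin1* (0.79, adjusted p = 0.0429), where 7.27% of all genes passed. Of 9 tested ligands of other branches 0 passed in edgeR, and 2 had an unadjusted p under 0.05, beside 41.0% of all genes. DESeq2 called 1 (31.2% of all genes) and limma 0 (23.9%). With the offset edgeR called 1 (7.27% of all genes), *Inhbb* (0.97, adjusted p = 0.0369). *Gdf11*, the most abundant by mean TPM over the 5 libraries, had -0.45 (edgeR, adjusted p = 0.146). Of 6 tested extracellular antagonists, *Fst*, which encodes the activin antagonist follistatin, rose (0.85, adjusted p = 0.0188, and 0.0542 with the offset). Among 10 tested co-receptors and related receptors, the decoy receptor *Bambi* rose from 197 and 217 reads to 309, 535 and 457 (1.24, adjusted p = 0.0245), and with the length offset by 1.78 (adjusted p = 0.0303). *Acvr2b* fell (-1.27, adjusted p = 0.0115) and did so with the offset (-1.32, adjusted p = 0.0306), while *Bmpr2* fell (-1.19, adjusted p = 0.00919) but stood at -0.01 with it.

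Within the cell, the called anchors, adaptors and nuclear cofactors all had changes below 0. Of 12 tested gene identifiers, 2 of them for *Hgs*, 7 fell in edgeR and in DESeq2 and 6 under limma. Over all genes, edgeR called 13.0% lower, DESeq2 2161 of 14553 and limma 2678 of 14106. The list's median was -0.64 in edgeR, and its median transcript length was 4312 bases against 2502 over all genes. The 7 called in edgeR included the histone acetyltransferases *Ep300* (-1.33, adjusted p = 0.00825) and *Crebbp* (-1.35, adjusted p = 0.00825) and the SMAD-binding repressor *Zeb2* (-0.94, adjusted p = 0.00954). With the length offset *Ep300* (-0.57, adjusted p = 0.0350) and *Zeb2* (-0.53, adjusted p = 0.0469) still passed, *Crebbp* did not (-0.43, adjusted p = 0.114), and the median was -0.24. Over all genes, 7.27% passed in either direction with the offset. Of 14 negative regulators, *Ski*, *Trim33* and *Wwp1* fell (-0.58, -0.64 and -0.80), *Fkbp1a* and *Tgif2* rose (1.14 and 0.61), and with the offset the smallest adjusted p of these 5 was 0.0792, for *Fkbp1a*. Of 4 other SMADs, *Smad9* fell (-0.54, adjusted p = 0.0321) and stood at 0.04 with the offset. Of 10 genes of the TAK1 branch, which signals from the receptors without SMADs, *Tab3* fell (-0.94) and *Traf4* rose (0.60), with adjusted p of 0.0545 and 0.0599 with the offset.

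Genes known to respond to TGF-beta went both ways, as did genes at large. Of 19 tested, 3 rose, 4 fell and 12 did not pass, with a median of -0.07. Over all genes tested, 12.7% rose and 13.0% fell, with a median of 0.02. *Junb* (1.58, adjusted p = 0.0126), *Cdkn1a* (1.12, adjusted p = 0.0192) and *Bhlhe40* (0.73, adjusted p = 0.0467) rose, and all 3 passed with the length offset as well. *Cdkn1a*, the cell cycle inhibitor p21, is also a classical target of p53, and the KP1 line is p53 mutant. *Fn1*, which encodes fibronectin (-1.72, adjusted p = 0.00919), *Snai2* (-1.35, adjusted p = 0.0293), *Cdkn2b* (-2.49, adjusted p = 0.0414) and *Zeb1* (-0.64, adjusted p = 0.0426) fell, and with the offset *Fn1* and *Snai2* passed. In this list the offset thus left 3 genes higher and 2 lower of 19, where 7.27% of all genes passed in either direction. TGF-beta is known to raise *Fn1*, *Snai2* and *Cdkn2b* in many epithelial cells. *Tgfbi*, a gene named for its induction by TGF-beta, had at most 5 reads in any library.

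**Figure D5:**
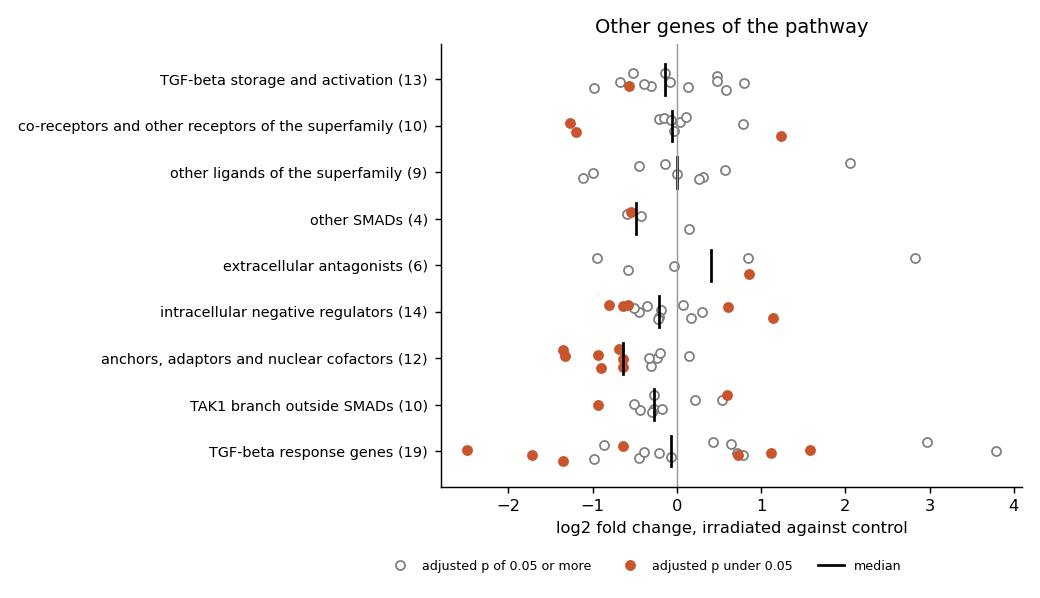
Log2 fold change, irradiated against control, of each tested gene in the 9 lists of other pathway genes (number tested in brackets), with filled points for an adjusted p under 0.05 by edgeR and a black bar for the list median. Points scatter on both sides of 0 in most lists, and the anchors, adaptors and nuclear cofactors have 7 filled points, all below 0.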

How the data were processed

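Bulk RNA was sequenced from 5 KP1 libraries, and the labels of each sample gave its group and replicate number. The authors quantified reads with Salmon (version 0.8.2 per the submitters' processing notes, default settings) on mm10 and deposited, for each transcript, an expected count (estimated reads, not normalized), TPM scaled within each library, and lengths in bases. The authors' DESeq2 (1.22.2) results were not used. The annotation release and strandedness are not given in the sources used here. The single-cell samples were not analysed here.

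Transcripts (112762 of 113116, 99.69%) were matched to GENCODE M21, and estimated counts were summed per gene and rounded. Irradiated and control libraries were compared with edgeR 4.0.16 (R 4.3.3) using filterByExpr, TMM and the quasi-likelihood test, adjusting p-values by Benjamini-Hochberg across 14106 genes. The common dispersion was 0.0542. Shares were compared by exact two-sided permutation tests. The floor of 3 reads covers counting error only. Counts of 29 to 137 reads a library for *Tgfbr2* and *Smad3* limit their precision.

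Alternatives were DESeq2 1.42.0, limma 3.58.1 on log2(TPM + 1), other normalizations and filters, coding genes or transcripts alone, offsets for effective length, transcript length and GC (splines with 5 degrees of freedom, which remove technical and biological trends alike), a replicate block and each replicate left out. Calls were tested on simulated data. Named were all members, in each list up to 3 genes per direction with the smallest p among those passing (otherwise the most abundant gene), and the 3 genes nearest to the member with the smallest p. Where a further gene or transcript is named, its values had been seen. Members and lists were chosen with earlier results of these data known. Tables were prepared in Python 3.11.15 (pandas 2.3.3, scipy 1.17.1) and plots in matplotlib 3.10.9.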

Additional observations from a re-analysis of the deposited data

How the results depend on the processing

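Under the 20 alternatives, the count of members called moved from 0 to 1 under DESeq2 (*Tgfb1*), no filter on low counts (*Tgfb1*), the effective length offset (*Tgfb1*) and limma on log2(TPM + 1) (*Tgfbr1*). It moved to 3 with a crossed replicate block, described below, and stayed 0 with each irradiated replicate left out. *Tgfb1* kept its direction in all 20. Fits without 1 control assume that the other varies like the irradiated libraries.

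Genes higher and lower numbered 1786 and 1827. They were 693 and 2678 under limma, 548 and 478 with the transcript length offset, and 95 to 2232 and 175 to 1977 with a replicate left out, both lowest without control replicate 2 (832 and 909 without irradiated replicate 1, 684 and 834 without irradiated replicate 2). Beyond a log2 fold change of 1 they were 788 and 743, and beyond 1.5 they were 230 and 268. Of the pathway lists, 8 genes higher and 18 lower became 1 higher under limma, 16 higher without a filter, 5 higher with the effective length offset, 5 lower with the transcript length offset, and 0 to 11 higher and 2 to 19 lower with a replicate left out.

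Whether numbers 2 and 3 pair the libraries is not stated, and same-numbered libraries did not deviate together (correlation -0.196 over genes). With the number as a replicate block, 606 genes were higher and 497 lower, and 5 and 6 in the lists. With the block and the length offset these were 0 and 2, and 0 and 0. A crossed pairing, chosen after the data were seen, gave 3026 genes higher and 2670 lower, which is 40.4% of all genes tested. In the lists it gave 16 higher and 23 lower. It called 3 members in edgeR: *Tgfb1* (adjusted p = 0.0493), *Tgfb3* (0.0294) and *Skil* (0.0166).

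Segment shares moved, in percentage points, to -71.8 for *Tgfbr2* and 0.112 for *Tgfbr1* as shares of TPM, and with a replicate left out ran from -0.671 to 2.68 for *Tgfb2*, from -3.55 to 8.63 for *Smad2* and from -5.28 to 3.66 for *Skil*. *Tgfbr2* gave no value with genes under 50 reads left out.

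Log2 fold changes of uncalled members changed sign as follows. With the transcript length offset *Tgfbr1* was 0.26, *Smad2* -0.028, *Smad7* 0.0029 and *Skil* 0.26, and with the block added *Tgfb2* was 0.18, *Tgfbr1* 0.18, *Smad2* -0.025, *Smad7* 0.16 and *Skil* 0.11. With the GC offset *Tgfb3* was -0.039, *Tgfbr1* 0.049 and *Smad3* -0.094, and with the effective length offset *Smad2* was -0.050. Under limma *Tgfb3* was -0.37, *Smad2* -0.39 and *Smad3* -0.068. *Smad3* was also -0.0026 with RLE, -0.012 with the CPM filter and -0.045 on coding transcripts. With a replicate left out *Tgfb3* ran from -0.20 to 0.45, *Tgfbr2* from -0.11 to 0.66, *Smad3* from -0.23 to 0.30 and *Smad4* from -0.32 to 0.12. Of the named pathway genes, *Ski* (0.036) and *Smad9* (0.043) turned with the length offset, and *Bmpr2* (0.0086), *Gdf11* (0.041) and *Smad9* (0.10) with the block added. The cause of these changes was not tested.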
